A study of Mus musculus with 2 samples.

Results

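The 10 genes described here encode calprotectin and neutrophil granule proteins, and they were followed through the culture of mouse mucosal mast cells, which in the body sit in epithelia such as that of the gut. They are S100a8 and S100a9 (calprotectin), Mpo, Elane and Prtn3 (azurophil granules), Ltf, Camp, Ngp and Lcn2 (specific granules), and Ms4a3, a membrane protein of granulocyte-monocyte progenitors. Members were found by the RefSeq accession of the probe, or for Lcn2 by the probe's description, and each of the 10 had 1 probe. All 10 were among the 18065 genes tested, of 20423 gene names with a value on both arrays. RNA of day 20 cultures was compared with RNA of day 4 cultures. Both days were grown with IL-3, IL-9, SCF (stem cell factor) and TGF-β1. The labels name neither the strain nor the age of the mice, nor the tissue from which the cells were taken. Each of 2 two-colour Agilent arrays carried both days, and each labelled RNA was a pool of 3 samples. On array 1 day 20 was labelled with Cy5 and day 4 with Cy3. Array 2 had the dyes swapped and pools of different origin, so n = 2 for every ratio, and the number of arrays limits the precision.

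Neutrophils carry their killing proteins in granules that are filled one kind after another as the cell matures. Azurophil granules, which hold myeloperoxidase and the serine proteases elastase and proteinase 3, are made first, in promyelocytes. Specific granules with lactoferrin, cathelicidin and lipocalin 2 follow in myelocytes, and calprotectin, a dimer of S100A8 and S100A9, fills the cytosol of neutrophils and monocytes. Mast cells and neutrophils both descend from myeloid progenitors.

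Calprotectin, the azurophil granule genes and Ms4a3 were lower at day 20 than at day 4, and 2 of the 4 specific granule genes were as well. In all, 8 of the 10 members were called lower at an adjusted p below 0.05 (limma, Benjamini-Hochberg over all tested genes), against 9.29% of all tested genes. Camp is among the 8 although it entered the test through its day 4 signal alone, and 7 members were called lower with a filter that asked for a signal well above background in each of the 4 channels. None of the 10 was called higher by limma, also at an unadjusted p below 0.05, against 7.83% of all tested genes at the adjusted threshold. All 10 had a ratio below 0 on both arrays, as did 30.4% of tested genes, and 4 members, S100a9, Mpo, S100a8 and Ms4a3, were at least 2-fold lower on both arrays, as were 0.819% of tested genes. The median log2 ratio of the 10 members, day 20 over day 4, was -1.09, with -1.29 on array 1 and -0.92 on array 2, and that of all tested genes was -0.0069. In cultured cells read in bulk, fewer cells of a type and less RNA per cell cannot be told apart.

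Among the mast cell markers 9 of 10 tested genes were called higher and 1 lower. The lower one was Hdc, at a log2 ratio of -1.28 ± 0.14 (SD, n = 2). Kit and Cpa3 had a probe but were not tested. Cma1 and Tpsab1 were saturated at day 20 on both arrays and Mcpt1 on 1 array, so the sizes of these rises are not given. The dyes differ in their level without RNA: the median signal of the 162 negative control spots was 53.8 for day 20 and 88.2 for day 4 on array 1, and 96.3 for day 20 and 51.6 for day 4 on array 2. A signal is therefore also given below as a multiple of the negative control median of its own channel. The highest negative control spot reached 1.26 times that median at day 20 and 1.45 times at day 4 on array 1, and on array 2 it reached 1.63 times at day 20 and 2.32 times at day 4. Each log2 ratio below was made with an offset of 50 added to both signals, which draws the ratios of faint spots towards 0, and a fold from the scanner software's own ratios stands beside each member for which it differed by more than 1.5 times, other than Camp, which is given as a bound.

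The sequences upstream of the calprotectin pair, which held the strongest and the third strongest fall of the members, are shown first. S100a8 and S100a9 lie next to each other on chromosome 3 with 0 coding genes between them, on opposite strands. The 250 bases before each start site are given from RefSeq on mouse assembly GRCm38.p6, S100a9 at chr3:90695722-90695971, minus strand and S100a8 at chr3:90668821-90669070, plus strand, written 5′ to 3′ on the gene's strand. Capitals mark matches on either strand to a C/EBP-type motif, TTNNGNAA, and to the core of the PU.1 motif, GAGGAA. C/EBP factors and PU.1 drive many granulocyte genes.
S100a9: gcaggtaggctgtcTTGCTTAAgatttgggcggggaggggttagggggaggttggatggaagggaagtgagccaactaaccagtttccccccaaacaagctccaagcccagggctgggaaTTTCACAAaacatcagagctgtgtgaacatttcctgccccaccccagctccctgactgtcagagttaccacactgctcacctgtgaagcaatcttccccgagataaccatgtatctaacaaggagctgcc
S100a8: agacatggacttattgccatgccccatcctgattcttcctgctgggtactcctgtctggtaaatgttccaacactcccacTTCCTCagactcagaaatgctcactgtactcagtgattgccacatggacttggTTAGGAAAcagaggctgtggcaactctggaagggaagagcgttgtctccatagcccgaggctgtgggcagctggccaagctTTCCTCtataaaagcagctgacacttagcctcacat
Of the promoters of all genes, 36.8% of 32817 held a TTNNGNAA match in this window and 23.3% a GAGGAA match. S100a9 held 2 TTNNGNAA matches and no GAGGAA match, and S100a8 held 1 TTNNGNAA match and 2 GAGGAA matches.

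S100a9, the larger partner of calprotectin, was the most strongly lowered of all 18065 tested genes. On array 1 its mean signal was 144.7 at day 20 and 6341 at day 4, and on array 2 it was 170.3 at day 20 and 3789 at day 4. Relative to the negative controls this was 2.69 and 1.77 times the median at day 20, against 71.9 and 73.5 times at day 4, so the days were far apart on both arrays. The log2 ratio was -5.14 on array 1 and -4.99 on array 2, a mean of -5.06 ± 0.11 (SD, n = 2) or 33.4-fold lower, with an adjusted p of 1.75e-11 in limma's fit across all genes. The scanner software's ratio gave 54.5-fold.

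S100a8, the other partner, was also lower. Its signal was 65.5 at day 20 and 870.6 at day 4 on array 1, and 107.3 at day 20 and 427.6 at day 4 on array 2. At day 20 these signals were 1.22 and 1.11 times the negative control median, below the highest negative control spot on both arrays, although the scanner software called them well above background. At day 4 they were 9.87 and 8.29 times the median. The log2 ratio was -3.39 on array 1 and -2.73 on array 2, a mean of -3.06 ± 0.46 (SD, n = 2) or 8.34-fold lower, with an adjusted p of 1.38e-08 by limma. By the scanner software's ratio the fall was 31.2-fold, so with day 20 at the level of the controls these arrays show the direction of the change but do not fix its size. The array values of S100a8 did not overlap those of S100a9, whereas they overlapped those of Mpo.

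**Figure D1:**
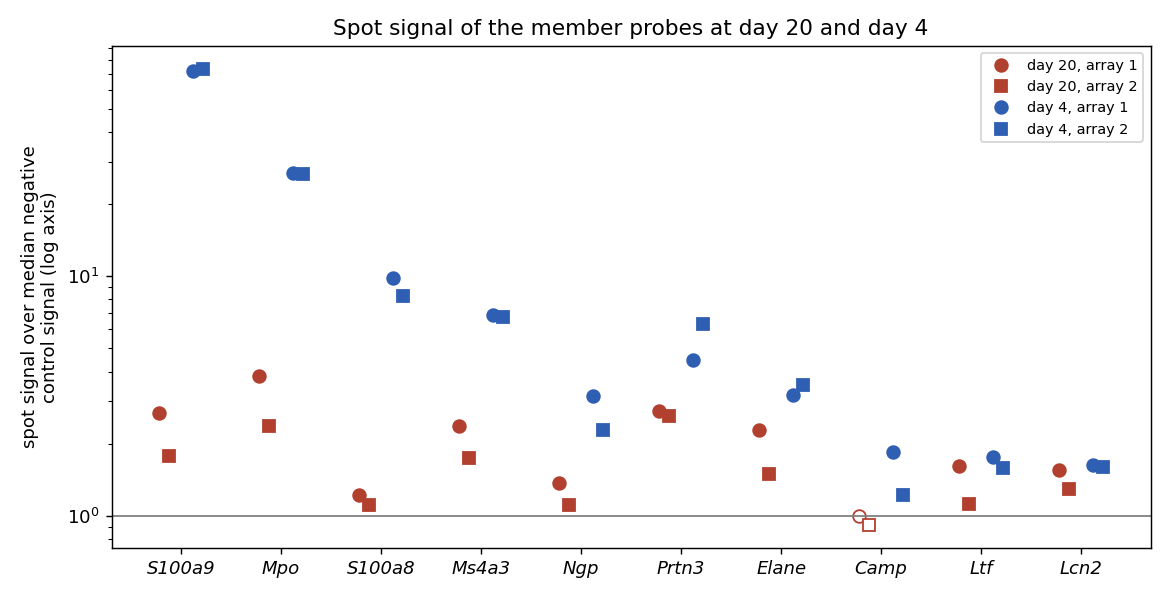
Mean spot signal of each member's probe at day 20 (red) and day 4 (blue), divided by the median of the negative control spots of the same channel, on a log axis, with circles for array 1, squares for array 2 and open symbols where the spot was not well above background. S100a9 lay at 2.69 and 1.77 at day 20 and at 71.9 and 73.5 at day 4, and the day 20 signals of S100a8, Ngp and Camp lay near 1, the level of the negative controls.

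The azurophil granule genes were next, and 3 of 3 were called lower. Mpo encodes myeloperoxidase, which makes hypochlorous acid, and Prtn3 and Elane encode proteinase 3 and neutrophil elastase. Prtn3 and Elane are neighbours on chromosome 10 with 0 coding genes between them. Their upstream sequences are shown because each of these 3 windows holds the PU.1 core followed by the same bases, GT. The 250 bases before the start sites are at chr11:87793534-87793783, plus strand for Mpo, chr10:79879417-79879666, plus strand for Prtn3 and chr10:79886062-79886311, plus strand for Elane (RefSeq, GRCm38.p6), with the same capitals.
Mpo: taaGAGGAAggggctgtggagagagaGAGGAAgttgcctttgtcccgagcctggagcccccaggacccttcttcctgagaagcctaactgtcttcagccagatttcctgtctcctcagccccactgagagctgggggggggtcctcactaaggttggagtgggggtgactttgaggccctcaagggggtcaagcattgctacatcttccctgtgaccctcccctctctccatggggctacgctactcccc
Prtn3: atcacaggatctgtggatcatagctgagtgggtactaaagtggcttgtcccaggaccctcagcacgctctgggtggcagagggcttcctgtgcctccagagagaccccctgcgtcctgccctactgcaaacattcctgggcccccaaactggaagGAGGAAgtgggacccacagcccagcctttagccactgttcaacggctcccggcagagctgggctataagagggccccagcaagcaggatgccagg
Elane: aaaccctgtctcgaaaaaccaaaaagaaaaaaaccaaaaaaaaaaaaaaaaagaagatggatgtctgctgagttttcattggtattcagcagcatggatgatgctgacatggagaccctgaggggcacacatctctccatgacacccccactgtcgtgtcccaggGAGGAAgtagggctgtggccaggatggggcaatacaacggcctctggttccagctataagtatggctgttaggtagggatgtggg
The longer string GAGGAAGT, which contains GAGGAA and was chosen after these windows had been read, was found on either strand in 4 of 10 member windows (Mpo, Prtn3, Elane and S100a8) and in 2.44% of all promoters. It began 224 bases before the start of Mpo, 95 before that of Prtn3 and 85 before that of Elane. None of these 3 windows held a TTNNGNAA match. Over the 10 member windows, 6 held TTNNGNAA (S100a8, S100a9, Ms4a3, Ngp, Ltf and Lcn2) and 6 held GAGGAA (Mpo, Elane, Prtn3, S100a8, Ltf and Lcn2). A match describes letters in a window and not a bound site.

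Mpo had a signal of 205.8 at day 20 and 2379 at day 4 on array 1, and of 227.8 at day 20 and 1379 at day 4 on array 2. It stood at 3.83 and 2.37 times the negative control median at day 20, against 27.0 and 26.7 times at day 4. Day 20 thus lay above every negative control spot on both arrays. The log2 ratio was -3.25 on array 1 and -3.04 on array 2, a mean of -3.15 ± 0.15 (SD, n = 2) or 8.87-fold lower, with an adjusted p of 1.69e-09 by limma.

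The changes of both elastase-type proteases were smaller. Prtn3 had a signal of 146.6 at day 20 and 393.2 at day 4 on array 1, and of 250.1 at day 20 and 325.1 at day 4 on array 2, or 2.73 and 2.60 times the negative control median at day 20, against 4.46 and 6.31 times at day 4. Its log2 ratio was -1.10 on array 1 and -0.83 on array 2, a mean of -0.96 ± 0.19 (SD, n = 2) or 1.95-fold lower, with an adjusted p of 5.08e-05 by limma. Elane had a signal of 122.8 at day 20 and 281.8 at day 4 on array 1, and of 143.7 at day 20 and 181.0 at day 4 on array 2, or 2.28 and 1.49 times the negative control median at day 20, against 3.20 and 3.51 times at day 4. On both arrays each gene thus stood higher over the controls at day 4 than at day 20. On array 2 the day 20 signal of Elane lay below the highest negative control spot. The log2 ratios of Elane were -0.84 and -0.91, a mean of -0.88 ± 0.05 (SD, n = 2) or 1.83-fold lower, with an adjusted p of 7.63e-05 by limma. The array values of Prtn3 and Elane overlapped, and both lay apart from those of Mpo. The Elane probe is described in the files only as elastase (EL2). Another probe, described there as elastase 2 (Ela2), carries the accession of Cela2a, a pancreatic elastase, and was not taken as a member. For Cela2a the log2 ratio was 0.15, which did not pass (adjusted p = 0.590 by limma).

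Ctsg, which encodes cathepsin G and in neutrophils is stored with these proteases but is also made by mast cells, was not called. Its signal was 154 and 84.7 times the negative control median at day 20, against 142 and 133 times at day 4, and its log2 ratio was 0.06 ± 0.20 (SD, n = 2; adjusted p = 0.954 by limma). Of 6 tested other genes of azurophil granules, 3 were higher and 2 lower, with a median log2 ratio of 0.45. Lyz2, the lysozyme shared with monocytes, was 7.36-fold lower at -2.88 ± 0.53, and Gusb, the lysosomal beta-glucuronidase, stood at -0.61 ± 0.41. Cd63, a tetraspanin of granule membranes, was higher at 1.16 ± 0.50, Srgn, the core protein of granule proteoglycans, at 1.17 ± 0.18, and Cst7, an inhibitor of cysteine proteases, at 0.84 ± 0.09. Cd63 and Srgn are also known from mast cell granules. With median centring in place of loess Gusb and Cd63 did not pass.

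Ms4a3 marks granulocyte-monocyte progenitors, and its 250 upstream bases (chr19:11640852-11641101, minus strand, RefSeq, GRCm38.p6) are shown because they hold a TTNNGNAA match that begins 59 bases before the start and no GAGGAA match.
Ms4a3: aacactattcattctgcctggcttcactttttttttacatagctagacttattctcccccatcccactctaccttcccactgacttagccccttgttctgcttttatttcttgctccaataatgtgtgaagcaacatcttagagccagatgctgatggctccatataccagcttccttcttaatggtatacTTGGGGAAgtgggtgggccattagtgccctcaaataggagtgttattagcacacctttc
Its signal was 127.0 at day 20 and 607.1 at day 4 on array 1, and 168.1 at day 20 and 348.2 at day 4 on array 2. The log2 ratio was -1.96 on array 1 and -1.60 on array 2, a mean of -1.78 ± 0.26 (SD, n = 2) or 3.43-fold lower, with an adjusted p of 3.73e-07 by limma, and the scanner software's ratio gave 5.18-fold. Its neighbour on chromosome 19 among tested genes, Ms4a2, the beta chain of the high-affinity IgE receptor of mast cells, was higher at 0.65 ± 0.12, a call that was lost with median centring and with the scanner software's ratios.

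The specific granule genes were split. Ngp, a cathelicidin-like granule protein of the mouse, had a signal of 73.9 at day 20 and 280.2 at day 4 on array 1, and of 106.4 at day 20 and 117.4 at day 4 on array 2. Relative to the negative controls it stood at 1.37 and 1.11 times the median at day 20, against 3.18 and 2.28 times at day 4. On array 2 its signals on both days lay below the highest negative control spot. The log2 ratio was -1.48 on array 1 and -0.94 on array 2, a mean of -1.21 ± 0.38 (SD, n = 2) or 2.31-fold lower, with an adjusted p of 2.38e-05 by limma. The scanner software's ratio gave 5.24-fold.

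Camp, the cathelicidin antimicrobial peptide, was well above background at day 4 on both arrays and at day 20 on neither. Its signal was 53.6 at day 20 and 162.0 at day 4 on array 1, and 88.2 at day 20 and 63.2 at day 4 on array 2, which at day 20 is 0.997 and 0.916 times the negative control median, against 1.84 and 1.23 times at day 4. Its level at day 20 is thus a bound. As a mean over the 2 arrays, Camp was at least 1.61-fold lower at day 20. That was set against the lowest signal called well above background, or its own signal where that was higher. The log2 ratio was -1.01 on array 1 and -0.48 on array 2, so array 2 alone, at 1.39-fold, lay under that bound. On array 2 the day 4 signal also lay below the highest negative control spot. Camp entered the test through day 4 alone, the day at which it was higher, so its adjusted p of 0.00121 by limma adds little to that bound. With median centring the adjusted p was 0.0555, and the scanner software's log2 ratio of -3.25 rests on the same day 20 signals below background. With Camp at its bound the median of the 10 members was again -1.09.

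Ltf (lactoferrin, which binds iron) and Lcn2 (lipocalin 2, which binds bacterial siderophores) were faint on both days. Ltf had a signal of 86.4 at day 20 and 155.2 at day 4 on array 1, and of 107.5 at day 20 and 81.9 at day 4 on array 2, or 1.61 and 1.12 times the negative control median at day 20, against 1.76 and 1.59 times at day 4. Its log2 ratio of -0.34 ± 0.06 (SD, n = 2) did not pass (adjusted p = 0.0540 by limma), but did pass with a normexp offset of 0, at -0.78 (adjusted p = 0.00977 by limma), and with an intensity trend in the prior. Lcn2 stood at 1.55 and 1.30 times the median at day 20, against 1.63 and 1.60 times at day 4, and its log2 ratio was -0.17 ± 0.08 (SD, n = 2; adjusted p = 0.491 by limma). On array 2 the day 4 signals of both genes lay below the highest negative control spot.

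**Figure D2:**
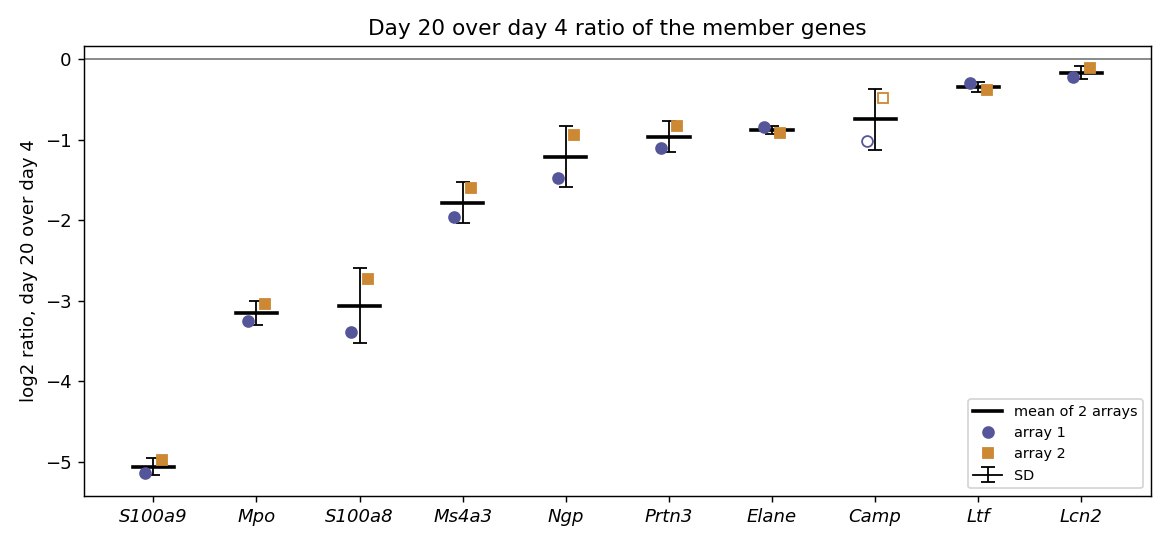
Log2 ratio of day 20 over day 4 for each member on array 1 (circles) and array 2 (squares), with the mean of both arrays (thick line) and the SD (thin bars), and open symbols for Camp, which was below background at day 20. The ratios run from -5.06 for S100a9 to -0.17 for Lcn2, and all 20 array values lie below 0.

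In the order of mean log2 ratios, S100a9 stood first of all tested genes, Mpo 4th, S100a8 5th and Ms4a3 29th, while Ngp was 120th, Prtn3 274th and Elane 362nd. The place of S100a8 rests on day 20 signals within the range of the negative controls. Ltf at 1850th and Lcn2 at 3205th were nearer to the middle of the order, and Camp, with only a bound, was given no place. Array values of members next to each other in this order overlapped between Mpo and S100a8, Ngp and Prtn3, and Prtn3 and Elane. They did not overlap between S100a9 and Mpo, S100a8 and Ms4a3, Ms4a3 and Ngp, Elane and Ltf, and Ltf and Lcn2. The order depended on the processing of faint spots: the scanner software's ratios put S100a8 (-4.96) below Mpo (-3.57).

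**Figure D3:**
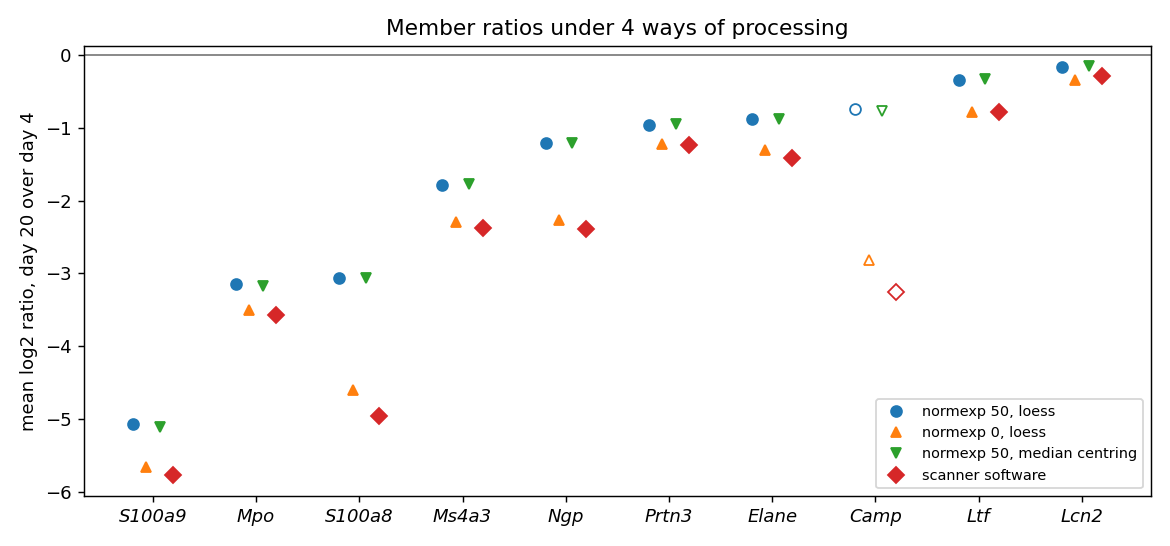
Mean log2 ratio of day 20 over day 4 of each member under 4 ways of processing: normexp offset 50 with loess (circles), normexp offset 0 with loess (upward triangles), normexp offset 50 with median centring (downward triangles) and the scanner software's ratios (diamonds), with open symbols for Camp. S100a8 moved to -4.96 with the scanner software's ratios, against -3.06 with the offset of 50, and Mpo to -3.57, against -3.15.

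Other neutrophil genes were set beside the members. Of 12 tested genes of specific and gelatinase granules, 0 were higher (1 at an unadjusted p below 0.05 by limma) and 2 lower, with a median log2 ratio of -0.07. Chil3, a chitinase-like lectin of neutrophils and macrophages, was 3.38-fold lower at -1.76 ± 0.20, and Itgb2, the integrin beta chain CD18, stood at -0.48 ± 0.04. Pglyrp1, a peptidoglycan recognition protein, did not pass at -0.15 ± 0.04. Pglyrp1, Itgam, Arg1 and Ptx3 lay below the highest negative control spot on both arrays and both days. Cybb, Fpr1 and Mmp9 lay below it on array 2 on both days. The median of this list thus does not show that its genes were unchanged. Of 17 tested neutrophil receptors and enzymes, 4 were higher and 2 lower, with a median of -0.05. Clec4d, a C-type lectin receptor, was 3.10-fold lower at -1.63 ± 0.27, and Fpr2, a formyl peptide receptor to which cathelicidin binds, stood at -0.53 ± 0.04, with its day 20 signal well above background on 1 array. Among those higher were Ncf4, a subunit of the phagocyte oxidase, at 1.30 ± 0.03, Rac2, its GTPase, at 1.01 ± 0.16, and Selplg, an adhesion molecule of leukocytes, at 0.48 ± 0.20. Itgb2, Fpr2 and Selplg did not pass with median centring.

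None of the tested defining markers of mature neutrophils was called. Of 13 such markers 6 were tested, all of which also belong to one of the previous lists, and 0 were called by limma in either direction, also at an unadjusted p below 0.05, with a median log2 ratio of -0.12. Csf3r, the receptor for the granulocyte growth factor G-CSF, was at -0.12 ± 0.02, Itgam (CD11b) at -0.13 ± 0.02, Fpr1 at -0.22 ± 0.07, Trem3 at -0.19 ± 0.04, Padi4 at -0.07 ± 0.15 and the gelatinase gene Mmp9 at 0.01 ± 0.04 (SD, n = 2). Itgam stood at 1.13 and 1.02 times the negative control median at day 20, against 1.20 and 1.15 times at day 4, and Csf3r at 1.64 and 1.10 times at day 20, against 1.56 and 1.31 times at day 4. Itgam was thus below the highest negative control spot on both arrays and both days, and Csf3r was below it on array 2 and above it on array 1. Fpr1, Padi4 and Mmp9 were also below it on array 2 on both days, and Trem3 alone was above it in all 4 channels. Most of these markers were thus near the controls, so the lack of a call does not show that they were unchanged. Cxcr2 also had a value but was not tested. The summed normalized signal of the 7 markers with a value was 753 and 715 at day 20, against 801 and 801 at day 4. Each gene's signal in this sum includes the offset of 50. Ly6g, Cd177, Mmp8, Retnlg, Fcnb and Cebpe were not analysed here.

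Markers of monocytes and macrophages moved in part with the members. Of 11 tested, 1 was higher and 6 lower, with a median log2 ratio of -0.45. Their summed normalized signal was 2265 and 2121 at day 20, against 3100 and 3485 at day 4. Apoe at -2.19 ± 0.21, Trem2 at -1.72 ± 0.03 and the complement gene C1qa at -0.94 ± 0.04 were lower, Cd14, Cd68 and Csf1r stood at -0.59, -0.55 and -0.45, and the chemokine receptor gene Ccr2 was higher at 0.99 ± 0.34. The other tested markers did not pass: C1qb at 0.02, C1qc at -0.07, Cx3cr1 at -0.02 and Fcgr1 at 0.01. Cx3cr1 and Fcgr1 lay below the highest negative control spot on array 2 on both days, and C1qb and C1qc above it in all channels. Calprotectin, Lyz2 and Chil3 are made by monocytes as well as neutrophils. Cd68 and Csf1r did not pass with median centring, and Cd14 and Csf1r did not with the scanner software's ratios. Erythroid markers moved with the members too, with 0 of 7 tested higher and 6 lower, a median of -1.05 and a summed signal of 984 and 1016 at day 20, against 1970.3 and 2152 at day 4. Of the erythroid genes called, Hemgn and Car1 entered the test through day 4 alone. Tfrc did not pass with median centring, and Tfrc and Epor did not without normalization. The part of monocytes, macrophages and erythroid cells in the result was not tested. Among eosinophil markers 0 of 5 tested were higher and 2, Epx and Prg2, lower, and neither passed with median centring. Among basophil markers 1 of 2 was higher and 1 lower, the protease gene Mcpt8 at -2.78 ± 0.10.

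**Figure D4:**
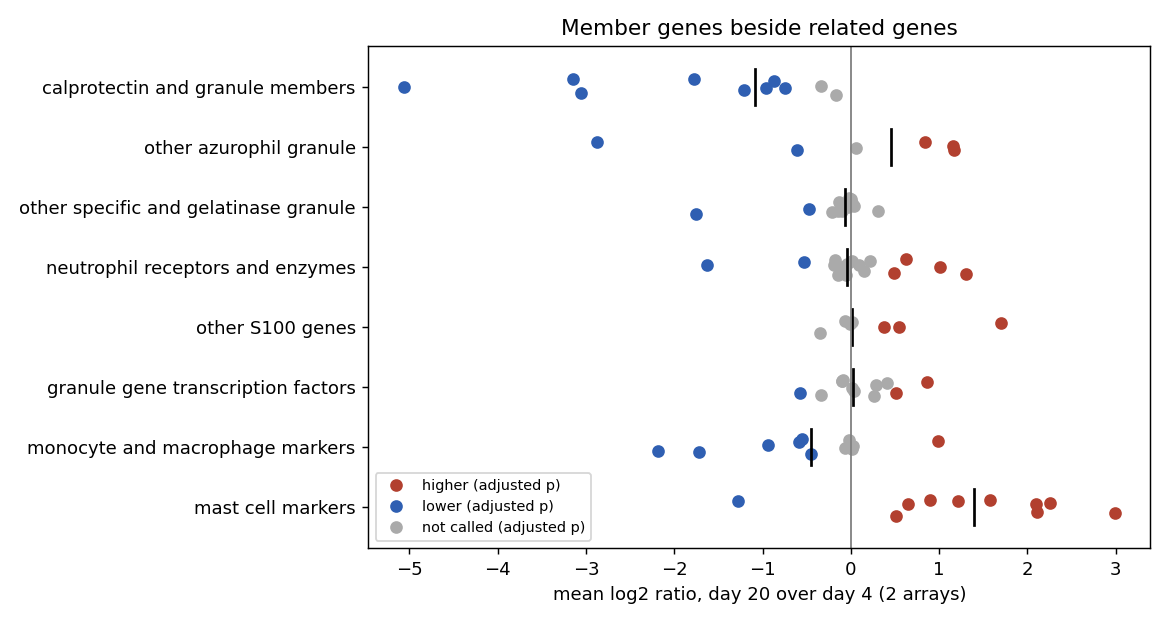
Mean log2 ratio of day 20 over day 4 for the 10 members and for each tested gene of 5 related gene lists and 2 marker lists, coloured by whether the gene was called higher, lower or not at an adjusted p below 0.05, with a vertical bar at each list's median (points are spread vertically only to separate them). The members' median lies at -1.09, those of the related lists between -0.07 and 0.45 and that of monocyte and macrophage markers at -0.45, while 3 of the mast cell markers (Cma1, Tpsab1 and Mcpt1) were saturated at day 20 and are drawn at their measured ratio.

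Other S100 genes were higher or were not called. Of 7 tested, 3 were higher and 0 lower (1 lower at an unadjusted p below 0.05 by limma). S100a10, the partner of annexin A2, was higher at a log2 ratio of 1.71 ± 0.02, S100a13 stood at 0.54 ± 0.33 and S100a1 at 0.38 ± 0.07. With median centring S100a10 alone passed. S100a3, S100a5 and S100a6, the nearest tested genes on one side of S100a8 and S100a9, did not pass, at 0.01, -0.07 and -0.35. Beside Mpo on chromosome 11 lie genes of related peroxidases: Lpo, lactoperoxidase, at -0.12 did not pass, and Epx, eosinophil peroxidase, was lower at -0.45 ± 0.18 but did not pass with median centring. Over all 8 loci, the 46 nearest tested genes (3 on each side) had a median log2 ratio of -0.07. Of these 46, 5 were higher and 10 lower, against 7.83% higher and 9.29% lower among all tested genes.

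Among factors that control granule genes, 2 of 12 tested were higher and 1 lower, with a median of 0.02. Cebpa and Spi1 (PU.1), which start granulocyte and macrophage programmes, were at -0.10 ± 0.0038 and -0.10 ± 0.03 and did not pass, and neither did Gfi1 at 0.04 ± 0.22. Cebpb was lower at -0.58 ± 0.23 and Cebpd higher at 0.87 ± 0.04, and Gata1, the erythroid and mast cell factor, was higher at 0.51 ± 0.31. Cebpb and Gata1 did not pass with median centring. Cebpa and Gfi1 lay below the highest negative control spot on array 2 on both days. For them the lack of a call thus does not show that they were unchanged. Of 6 tested receptors of the members' products, 1 was higher and 2 lower: Tlr4, the endotoxin receptor that calprotectin also binds, was higher at 0.87 ± 0.14, and Fpr2 and Itgb2 are given above. Ager, another receptor of calprotectin, at -0.04 and Slc22a17, a receptor of lipocalin 2, at -0.05 did not pass. Of 7 tested inhibitors of granule proteases, 3 were higher and 0 lower, Cst7 as above, Serpinb6a at 0.70 ± 0.16 and Serpinb1a, an inhibitor of elastase and proteinase 3, at 0.41 ± 0.14. Serpinb1a did not pass with median centring, and neither Serpinb gene passed with the scanner software's ratios.

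The 12 most strongly lowered genes outside the members were taken from other named genes called lower with a ratio below 0 on both arrays. They are the 12 with the lowest mean log2 ratios over the 2 arrays, and so are like the most strongly lowered members only. They began with Ctss, a cathepsin of antigen-presenting cells, at -3.60, Lyz2 at -2.88, Anxa2, the partner of S100a10, at -2.83 and Mcpt8 at -2.78, and ended with Egfl7 and Mrps28, both at -2.06. S100a9 lay below all 12 and S100a8 and Mpo below all but Ctss. Ms4a3, Ngp, Prtn3, Elane, Ltf and Lcn2 lay above all 12.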

How the data were processed

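Array spots were read from the scanner files of 2 arrays, each with day 20 and day 4 RNA in opposite dyes. Per the labels, cRNA was made by linear amplification, and the authors measured spots with Agilent Feature Extraction (7.5 in the submitters' processing notes). The deposited mean signals and local backgrounds are intensity values without normalization. The deposited log10 ratios, Cy5 over Cy3, were made by the same software from background-subtracted, dye-normalized signals, and the deposited series matrix equals them in 22393 of 22393 rows per array (tolerance 1e-06). In the file of array 1, 313 Cy3 and 324 Cy5 background medians had been turned into month names and were read back as numbers, and a column holding such cells is of no fixed unit. Log2 ratios were computed with R 4.3.3 and limma 3.58.1: normexp (offset 50), loess within arrays, control and outlier-marked spots at no weight, and array 2 turned so that each ratio is day 20 over day 4.

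Of 20868 gene probes, 8947 were named by RefSeq accession (GRCm38.p6) and 11246 by accession alone. The Lcn2 probe was named by its description, since its accession was not matched. For each gene the probe of highest mean signal was used, and genes well above background in both day 20 or both day 4 channels were tested against 0 with lmFit and eBayes (two-sided, Benjamini-Hochberg over 18065 genes). The p-values rest largely on limma's variance prior (SD 0.163 with 12.1 degrees of freedom, beside 1 residual degree per gene), and the pooled SD between arrays was 0.19. A dye term would leave no residual degrees of freedom. The fit was tested on simulated data. Members and gene lists were chosen with earlier results of these data known. Named genes were the members, up to 6 genes per list with the largest changes among those called, and the tested defining markers. Added to these were the 12 lowest of the other named genes called lower with a ratio below 0 on both arrays. Promoters were read from RefSeq for 10 of 10 members.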

Additional observations from a re-analysis of the deposited data

How the results depend on the processing

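S100a9, S100a8, Mpo, Ms4a3, Ngp, Prtn3 and Elane were called lower in 11 of 11 settings, Camp in 8 of 10, Ltf in 2 of 11 and Lcn2 in 0 of 11, and the number of members called lower lay between 7 and 9. The members' median was -2.28 with a normexp offset of 0 and -2.38 with the scanner software's ratios, as with the series matrix values, and -1.29 to -0.92 when one array was left out. The median of all tested genes was -0.018 with an offset of 0, 0.017 without normalization and -0.0090 to 0.0016 when one array was left out. Genes called higher numbered 1415, against 613 with the scanner software's ratios and the series matrix, 559 with median centring and 404 without normalization. Genes called lower numbered 1678, against 631, 785 and 517 under the same settings. Of the other neutrophil genes, 6 were called lower, against 3 with median centring and 3 without normalization. The cause was not tested. With an array left out there is no residual spread, so no calls could be made. No paired analysis was possible because each array holds both days and its ratio is already the pair. The bounds for dim members and the neighbours on the chromosomes were chosen after seeing the data. What limits the faint members is signal over background: Camp at day 20 was below it on both arrays, and Ltf and Lcn2 were close to it on both days.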
